A study of Homo sapiens and Mus musculus with 14 samples.

Results

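The 8 genes described here encode the core of the cGAS-STING pathway, by which cells sense DNA in the cytosol: CGAS, IFI16, STING1, TBK1, IKBKE, IRF3, IRF7 and TREX1. They are 8 of 19970 protein-coding genes on the primary chromosomes other than Y. Their accessible regions were taken as all ATAC-seq peaks in each gene body (hg38) and 20 kb on each side. Such peaks mark DNA that the transposase of the assay could reach. The windows held 26 of 64806 control peaks, 15 of 39537 peaks of SMARCAL1 knockout clone 1 and 13 of 34572 peaks of SMARCAL1 knockout clone 2. Gene-end peaks, within 1000 bp of either annotated end of the gene, were kept apart from the others.

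The cells were MDA-MB-436, an established human breast adenocarcinoma line of mesenchymal character that is known to carry a BRCA1 mutation, shared by every group. All were grown in DMEM with bovine growth serum, penicillin and streptomycin, and no treatment is labelled. The groups were control cells (3 libraries, batch 1), SMARCAL1 knockout clone 1 (3 libraries, batch 1) and SMARCAL1 knockout clone 2 (2 libraries, batch 2). SMARCAL1 acts on stalled DNA replication forks, and by its title the series deals with how it regulates innate immune signalling. Each group is 1 list in which the authors merged the replicates, so no difference has a replicate check and no p-value is given. In clone 1 the knockout cannot be told apart from other traits of that clone, and in clone 2 neither from these nor from the batch. The lists differ in length and in peak width, the median width being 399 bp for control peaks, 453 bp for clone 1 peaks and 200 bp for clone 2 peaks.

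In this pathway cGAS binds double-stranded DNA and makes the second messenger cGAMP, which activates STING on the endoplasmic reticulum. STING recruits the kinase TBK1 or its relative IKKε, the product of IKBKE, and these phosphorylate IRF3 and IRF7, which switch on type I interferon genes. IFI16 is a further DNA sensor, mostly nuclear, and TREX1 degrades cytosolic DNA and so restrains the pathway. Many tumour lines silence CGAS or STING1.

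The 8 genes fell into several patterns. CGAS, TBK1 and IFI16 had a gene-end peak in all 3 lists. STING1, IKBKE and IRF7 had one in control and in neither clone. TREX1 had one in control and clone 2 but not in clone 1, and IRF3 had one in clone 1 alone. The 7 genes open at an end in control thus included 4 without one in clone 1, 3 without one in clone 2 and 3 without one in either. Over the genome, 12164 genes had such a control peak, and 21.1% of them lacked one in clone 1, 30.1% in clone 2 and 15.9% in both. With 7 genes these counts are coarse, and 4 of the 9 control gene-end peaks lie within 1000 bp of a neighbouring gene's end as well.

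**Figure D1:**
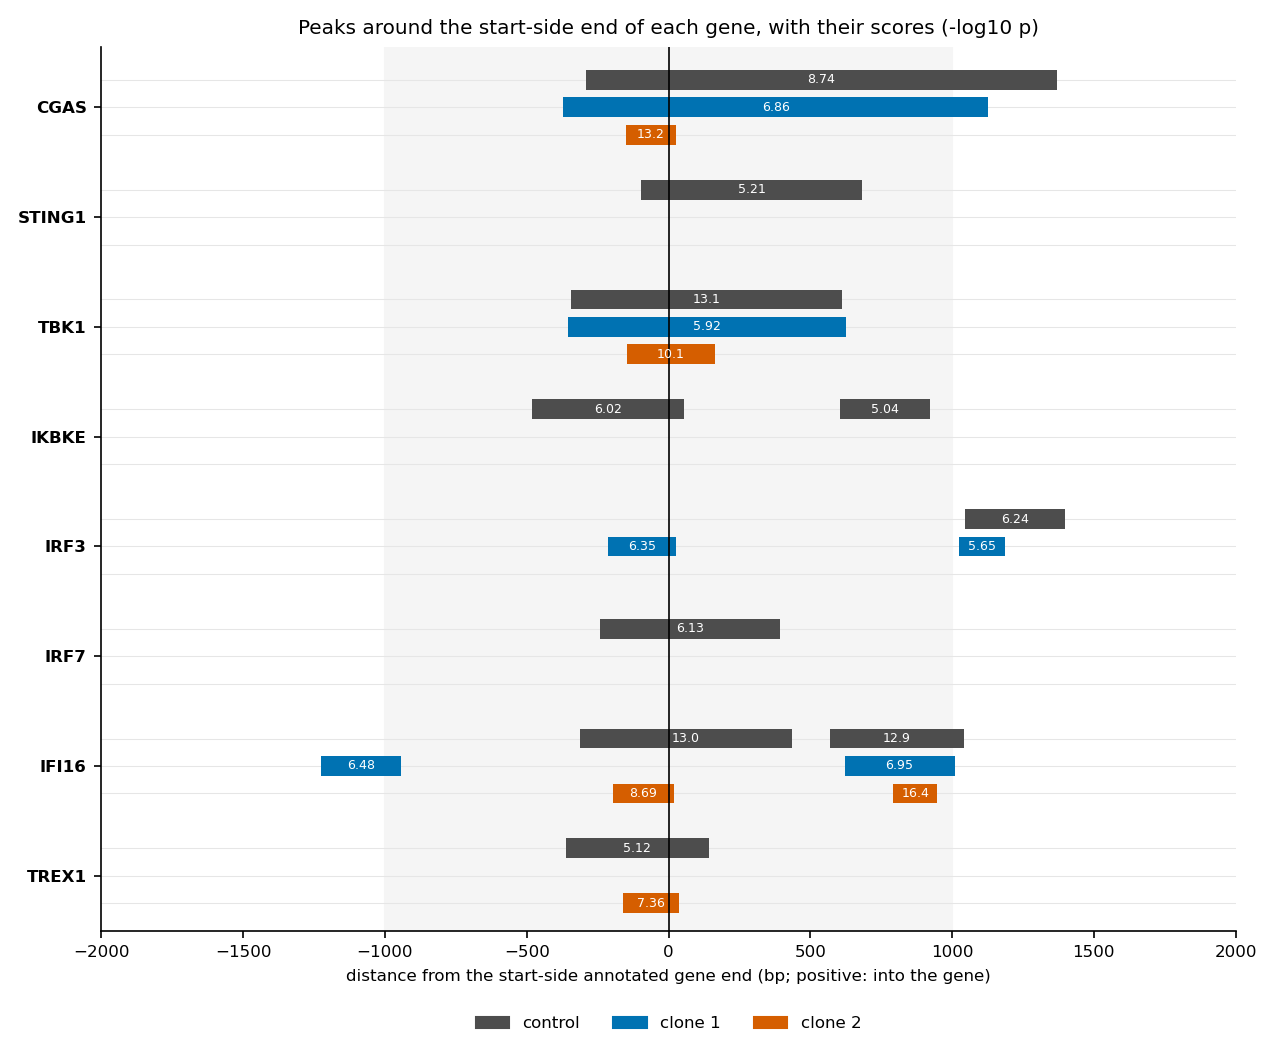
Peaks within 2 kb of the start-side annotated end of each gene, as bars from peak start to peak end with the score in white; positive distances lead into the gene and the grey band marks 1000 bp on each side. CGAS, TBK1 and IFI16 have bars in all 3 lists, while STING1, IKBKE and IRF7 have control bars only.

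The figure of gene starts is drawn by the direction of transcription. RefSeq promoter sequences (GRCh38.p14, the same primary coordinates as hg38) were at hand for TBK1, IKBKE, IFI16 and TREX1, all on the forward strand. CGAS, STING1, IRF3 and IRF7 lie on the reverse strand, as background knowledge, so their start is the higher-numbered end. The promoters below are shown because peaks lie over them in different sets of lists. Each runs from 250 bases before the start site to 20 bases from it on, 5′ to 3′, and capitals mark motif matches. The clone 2 peak at TREX1 starts at base 48465669, so the TREX1 sequence is only in part under it.
TBK1, chr12:64451870-64452139, forward strand, under control and clone 1 peaks and in part under a clone 2 peak: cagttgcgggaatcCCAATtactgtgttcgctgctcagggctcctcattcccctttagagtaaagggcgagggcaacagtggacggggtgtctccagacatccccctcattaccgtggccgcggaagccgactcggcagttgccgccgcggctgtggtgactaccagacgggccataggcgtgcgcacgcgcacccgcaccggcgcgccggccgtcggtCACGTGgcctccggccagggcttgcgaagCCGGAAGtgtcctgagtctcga
IKBKE, chr1:206470226-206470495, forward strand, under a control peak only: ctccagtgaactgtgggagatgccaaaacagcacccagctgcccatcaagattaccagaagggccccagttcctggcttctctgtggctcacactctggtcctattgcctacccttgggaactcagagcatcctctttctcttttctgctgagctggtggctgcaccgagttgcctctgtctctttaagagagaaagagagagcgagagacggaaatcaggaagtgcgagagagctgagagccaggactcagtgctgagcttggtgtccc
TREX1, chr3:48465580-48465849, forward strand, under control and clone 2 peaks: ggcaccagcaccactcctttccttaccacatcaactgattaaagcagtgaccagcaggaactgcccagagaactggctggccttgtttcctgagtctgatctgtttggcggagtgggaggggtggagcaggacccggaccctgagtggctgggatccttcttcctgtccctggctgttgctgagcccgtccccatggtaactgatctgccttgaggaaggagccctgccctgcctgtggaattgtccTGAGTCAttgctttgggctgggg
IFI16, promoter of an internal start site, chr1:159009657-159009926, forward strand, under a clone 1 peak and in part under control and clone 2 peaks: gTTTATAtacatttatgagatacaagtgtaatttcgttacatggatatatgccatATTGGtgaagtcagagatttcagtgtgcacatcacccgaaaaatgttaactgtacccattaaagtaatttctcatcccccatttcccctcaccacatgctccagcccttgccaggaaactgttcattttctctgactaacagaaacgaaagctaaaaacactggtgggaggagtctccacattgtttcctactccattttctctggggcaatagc

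These promoters differed in base composition. In the 300 bases of the RefSeq entries, which reach 50 bases from the start site on, TBK1 had 35 CpG dinucleotides and 68.3% GC, the profile of a CpG island promoter. IKBKE had 5 CpG and 55% GC, TREX1 had 3 CpG and 57.7% GC, and the internal IFI16 promoter had 3 CpG and 41.7% GC. Of the 35116 RefSeq promoter entries, 14454 had 20 or more CpG, and 78.6% of these were touched by a control peak. The share was 12.97% for entries with 5 to 9 CpG and 4.50% for those with 0 to 4, so IKBKE, TREX1 and the internal IFI16 start site belong to classes that were rarely open. Where control peaks touched a promoter, none was found in either clone at 14.2% of entries with 20 or more CpG, 37.5% of those with 5 to 9 and 41.2% of those with 0 to 4.

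Motifs were searched on both strands of the same 300 bases. TBK1 held a CCAAT box (CCAAT) from base -236 to -232, counted from the start site as base 0, inside the control and clone 1 peaks and outside the clone 2 peak. It also held an E-box (CACGTG) from -31 to -26 and an ETS motif (CCGGAAG) from -2 to 4, both inside the peaks of all 3 lists. The TREX1 entry held an AP-1 motif (TGANTCA, here TGAGTCA) from -3 to 3, across the start site and inside its control and clone 2 peaks. The internal IFI16 entry held a reverse CCAAT box from -195 to -191 and a reverse TATAAA match from -249 to -244, both inside the clone 1 peak and outside the narrower peaks of the other lists. None of these matches overlapped another. Among all entries, 34.6% held a CCAAT box, 7.26% the E-box, 10.3% the ETS motif, 7.71% the AP-1 motif and 11.5% a TATA box. The CCAAT box is thus common, and none of these motifs is particular to the genes shown. The IKBKE entry matched none of the motifs searched. These also included the GC box (GGGCGG, in 44.9% of entries), CREB (TGACGTCA, 1.85%), the gamma-activated site (TTCNNNGAA, 7.66%), YY1 (AAGATGG, 5.84%) and, by name, the interferon-stimulated response element (3.57%), NF-kB (5.91%) and NRF1 (1.24%). A match is no evidence that a factor binds, and letters absent from this window say nothing about the factor.

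Scores in the lists are the authors' own and are read from their values as −log10 p of the peak caller. They vary with library depth and caller settings, so each is read only against its own list, whose median was 6.26 for control, 6.07 for clone 1 and 11 for clone 2. Some scores carry too many decimals for 1 call and are means over merged calls, termed recognisable means here. From these decimals the fewest calls that could give a score were derived for the control and clone 1 lists. A score that needs only 1 call may still be a mean, and several calls can come from 1 library.

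**Figure D2:**
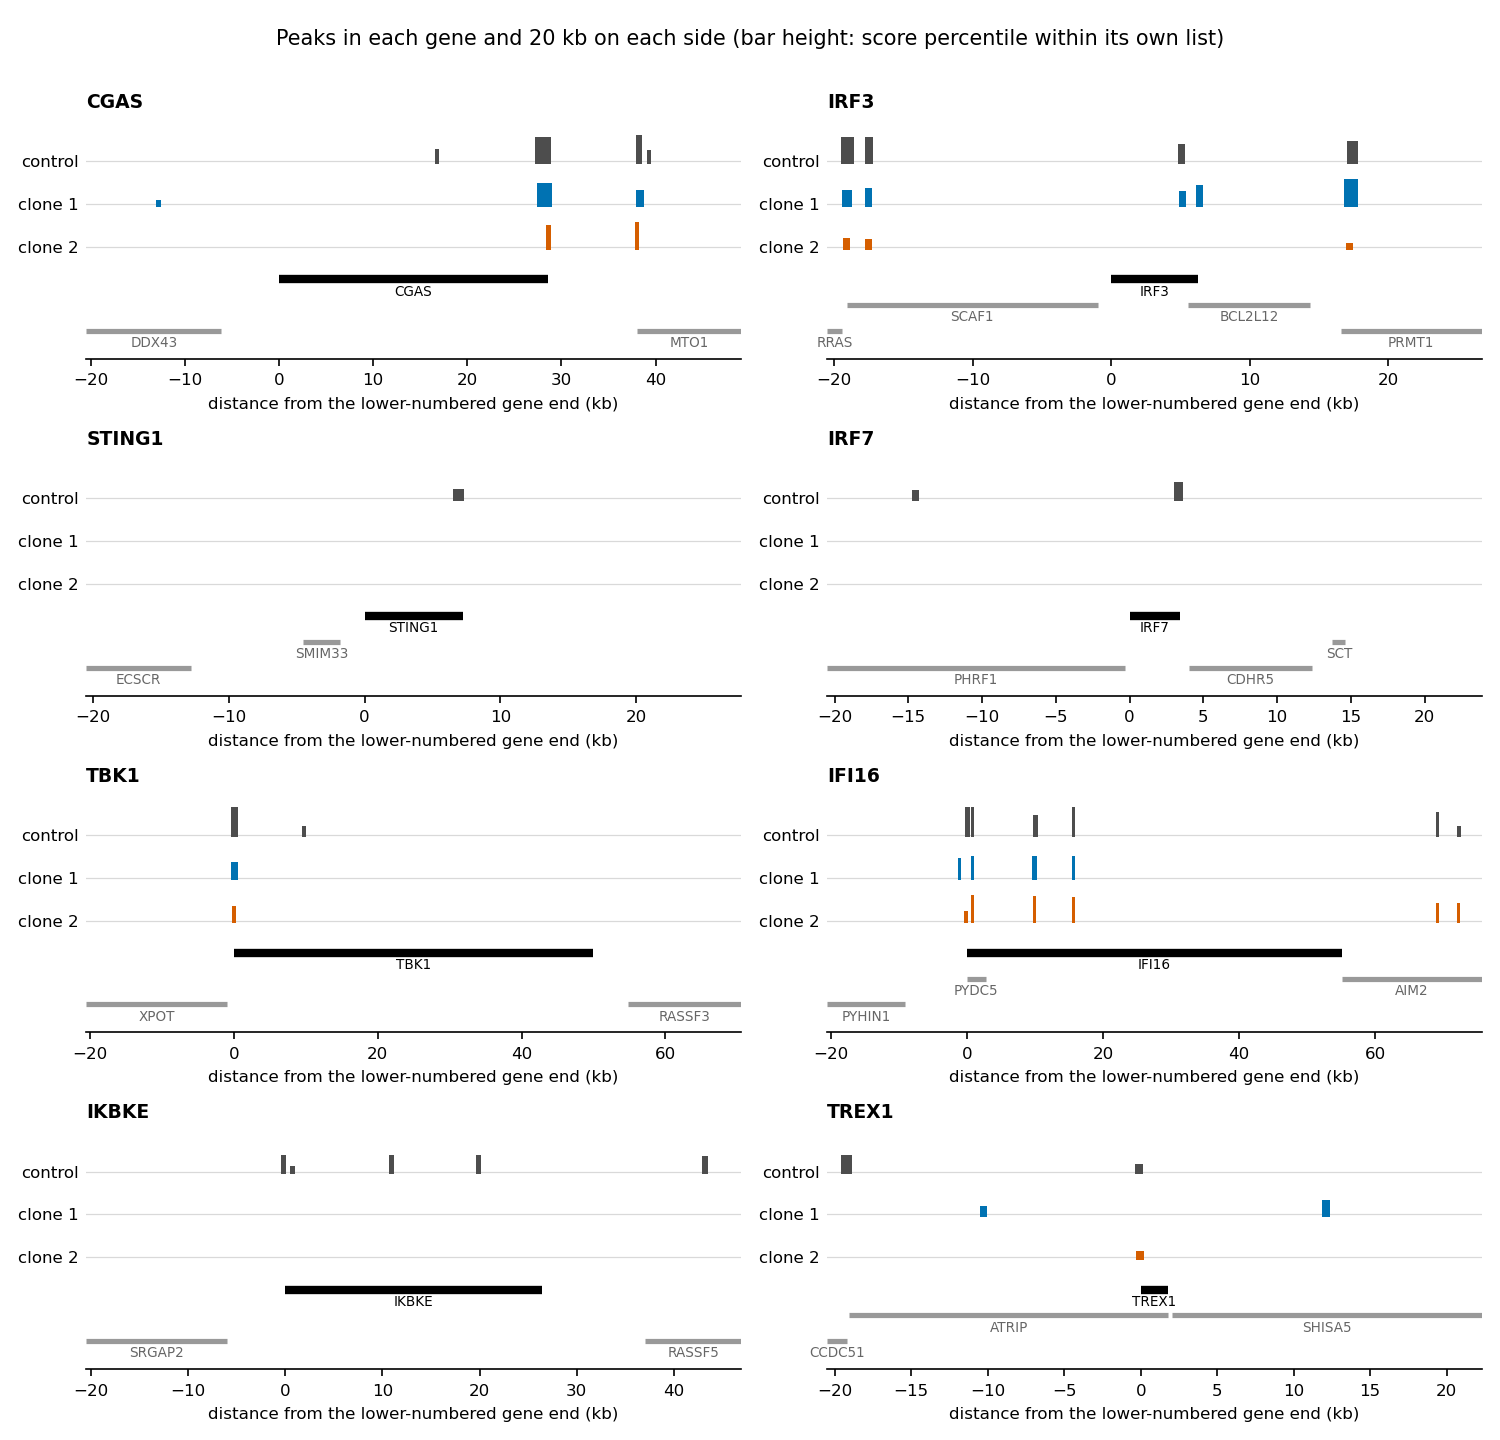
All peaks of the 3 lists in each gene and 20 kb on each side, by distance from the lower-numbered gene end; bar width is peak width (at least 0.5 kb as drawn), bar height the score percentile in its own list, black the gene and grey its protein-coding neighbours. All 6 control peaks of IFI16 have a clone 2 counterpart and 3 a clone 1 counterpart, and the IKBKE, STING1 and IRF7 rows of both clones are empty.

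CGAS, the DNA sensor itself (chr6:73423711-73452297), kept its start-side peak in every list. The control peak (chr6:73450928-73452587) was 1660 bp wide, the widest control peak of the 8 windows, with a score of 8.74, a mean of at least 5 calls. In clone 1 a peak of 1500 bp covered the same end with a score of 6.86, a mean of at least 4 calls. In clone 2 the peak there was 179 bp wide with a score of 13.2. All 3 peaks contained the annotated end. Of control gene-end peaks with a score within 10% of it, 86.3% were found in clone 1 and 76.4% in clone 2. A control peak inside the gene (score 5.59) and another in the right flank (5.45), each from possibly 1 call, were in neither clone. Among control peaks of like score away from gene ends, 76.4% and 77.7% were in neither clone. Clone 1 had 1 peak in the left flank, inside DDX43, that control lacked, with a score of 5.01, close to the lowest of its list.

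IFI16 (chr1:158999976-159055151) had 6 peaks in the control list and 6 in that of clone 2, the most of the 8 genes in both, and 4 in that of clone 1, where IRF3 had 5. Its start was under or near 2 control peaks with scores of 13.04 and 12.9, and both had an overlapping peak in clone 2, at 8.69 and 16.4. The control peaks stood at the 89.9 and 89.7 percentiles of their list, and the clone 2 peaks at the 21.2 and 83.2 percentiles of theirs. The first control peak (chr1:158999664-159000410), which covers the annotated start, was a mean of at least 3 calls and had no overlapping peak in clone 1. This absence is uncommon: of 1182 control gene-end peaks within 10% of its score, 15 lacked a clone 1 peak and 98.7% had one. Clone 1 peaks lay on both sides, 630 bp away with a score of 6.48 and 186 bp away with a score of 6.95. Where peaks within 200 bp also count as found, the absence is therefore lost. The second of these clone 1 peaks overlapped the other control start peak, so the gene kept a gene-end peak in clone 1. PYDC5, a pyrin-domain gene, is annotated over the same start, and the peaks cannot be assigned to one of them.

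Inside IFI16, 2 further sites were open in all 3 lists. One (control chr1:159009752-159010392) lies across the internal RefSeq start site at base 159009907, whose sequence is given above. Its score was 6.91 in the control list, 6.88 in that of clone 1 and 14.8 in that of clone 2, and the batch 1 values were means of at least 3 calls each. Of control peaks of like score away from gene ends, 35.4% were found in clone 1 and 42.4% in clone 2. The other site (control chr1:159015521-159015849) had a score of 13.01 in the control list, 6.91 in that of clone 1 and 14.7 in that of clone 2. The other RefSeq start site of the gene, at base 159008991, was under no peak, the nearest being 761 bp away in control, 513 bp in clone 1 and 800 bp in clone 2. A pair of control peaks in the right flank, inside AIM2, another DNA sensor gene, had scores of 7.92 and 5.18. Both were found in clone 2, at 11.2 and 11.1, and neither in clone 1. The weaker one is of a kind found in clone 2 at 11.3% over all like control peaks.

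Each of the 6 control peaks of IFI16 was therefore in clone 2 and 3 of the 6 were in clone 1. Among 750 protein-coding genes with exactly 6 control peaks in such a window, 18 (2.40%) had all of them in clone 2 and 37 (4.93%) had each in at least 1 clone. This comparison was chosen after the IFI16 values were seen, and the windows of neighbouring genes overlap. It matches the number of peaks and not their scores.

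STING1, the adaptor (chr5:139475533-139482758), had 1 peak in its whole window, in control. It was 780 bp wide, covered the start-side end (chr5:139482075-139482854) and had a score of 5.21, at the 19.6 percentile of its list. The score needs only 1 call, and the peak was not among the 34572 strongest of the control list, the length of the shortest list. Neither clone had a peak in the window. Of like-scoring control gene-end peaks, 26.7% were found in clone 1, 12.8% in clone 2 and 66.2% in neither. The single peak being in neither clone was also common at the level of genes: among 3797 genes with exactly 1 control peak in the window it was so for 1358, or 35.8%.

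TBK1, the main kinase of the pathway (chr12:64452120-64502114), kept its start peak. The control peak (chr12:64451775-64452731) had a score of 13.1, the highest control score of the 8 windows and a mean of at least 3 calls. The clone 1 peak was of similar width, 981 bp against 957 bp in control, with a score of 5.92, also a mean of at least 3 calls. In clone 2 a peak of 310 bp had a score of 10.1. Within its own list the peak stood at the 90.03 percentile in control, 44.28 in clone 1 and 39.57 in clone 2. With every list cut at its own median score, TBK1 had a gene-end peak in control only. Of like-scoring control gene-end peaks, 98.8% were in clone 1 and 98.3% in clone 2, so keeping this peak was the usual outcome. The end of XPOT, a tRNA export factor gene, is 995 bp from the TBK1 start, and the peaks count for both genes. A control peak inside the gene had a score of 5.15 and was in neither clone. That exact score is held by 1713 control peaks.

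IKBKE, which encodes the related kinase (chr1:206470476-206496889), had 5 control peaks in its window and none in either clone. It differed from TBK1 at the start, while the control peak inside TBK1 was in neither clone too. A peak across the start (chr1:206469996-206470532) had a score of 6.02 and another 604 bp into the gene 5.04. Peaks further inside the gene had scores of 6.11 and 6.08, and one in the right flank, inside RASSF5, had 5.99. The last was a mean of at least 3 calls, while the others need only 1. All 5 scores lay below the control median, and with lists of equal length IKBKE had no control gene-end peak. For the start peak, 41.6% of like control gene-end peaks were in clone 1, 25.0% in clone 2 and 49.3% in neither, and for the 3 peaks away from gene ends 63.2% to 65.0% of like peaks were in neither. Among 1316 genes with exactly 5 control peaks in such a window, 47 (3.57%) had none of them in either clone. This comparison too was chosen after the values were seen, and peaks of 1 locus are not independent. It matches the number of peaks and not their scores. Of all control peaks below the control median, 74.3% were in neither clone.

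IRF3, the factor that TBK1 activates (chr19:49659572-49665857), was the 1 gene of the 8 without a control gene-end peak. Clone 1 had a peak of 239 bp across its start-side end (chr19:49665832-49666070) with a score of 6.35, which may come from 1 call. No control or clone 2 peak overlapped it. Among the 7806 genes that, like IRF3, had no such control peak, 5.93% had one in the clone 1 list and 0.564% in the lists of both clones. BCL2L12, an apoptosis-related gene, has its lower-numbered end inside IRF3, so the peak lies over both genes. The assignment also turned on the distance rule. A control peak inside IRF3 (score 6.24, a mean of at least 3 calls) lay 1047 bp from the IRF3 end and an overlapping clone 1 peak (5.65) lay 1025 bp from it, both just outside 1000 bp. The first clone 1 peak of IFI16, 943 bp from the gene, was just inside. This control peak, which counts as a gene-end peak of BCL2L12, was not in clone 2, where 29.3% of like gene-end peaks were found. The 3 other control peaks of this window lie within SCAF1, a splicing-related gene, or PRMT1, an arginine methyltransferase gene. With scores of 8.77, 9.37 and 6.92 they were in both clones.

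IRF7, the interferon-inducible relative of IRF3 (chr11:612555-615950), had 2 control peaks and none in either clone. The peak across its start-side end (chr11:615556-616192) had a score of 6.13, a mean of at least 3 calls. Of like control gene-end peaks, 44.4% were in clone 1, 27.2% in clone 2 and 46.1% in neither. The peak also lies within 1000 bp of CDHR5, a cadherin-family gene. The other, in the left flank inside PHRF1, had the widely shared score of 5.15. Among 4170 genes with exactly 2 control peaks in the window, 662 (15.9%) had neither peak in a clone.

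TREX1, the exonuclease (chr3:48465830-48467645), had a weak start peak in control and clone 2. The control peak (chr3:48465467-48465973) had a score of 5.12, a mean of at least 2 calls, at the 13.7 percentile of its list. The clone 2 peak, 200 bp wide within it, had a score of 7.36 at the 7.60 percentile. Of like control gene-end peaks, 26.3% were in clone 1 and 12.2% in clone 2. TREX1 lies inside the annotated span of ATRIP, the partner of the checkpoint kinase ATR. The peak over the facing ends of ATRIP and CCDC51 (score 6.17, a mean of at least 3 calls) was in control and in neither clone. Clone 1 had 2 peaks that control lacked, inside ATRIP and SHISA5, with scores of 5.27 and 5.74. The first of these scores is held by 1823 clone 1 peaks. With lists of equal length TREX1 had no control gene-end peak.

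Over the 8 windows, 16 of 26 control peaks (61.5%, exact binomial 95% interval 40.6 to 79.8) had no overlapping clone 1 peak. For clone 2 it was 13 of 26 (50%, 29.9 to 70.1), and 12 (46.2%, 26.6 to 66.6) were in neither clone. Over all control peaks the shares were 57.9%, 57.1% and 46.7%, which lie inside these intervals. The intervals cover counting error only. Gene-end peaks of the members were absent at 6 of 9 in clone 1, 4 of 9 in clone 2 and 4 of 9 in both, against 27.7%, 36.0% and 21.9% of the gene-end peaks of all genes. The other 17 control peaks of the windows, some of them at ends of neighbours, were absent at 10, 9 and 8, against 65.1%, 61.5% and 52.5% of all peaks on these chromosomes away from gene ends. In the other direction, 5 of 15 clone 1 peaks (33.3%, 11.8 to 61.6) overlapped no control peak, against 30.7% over the whole list. Every clone 2 peak of the windows overlapped a control peak: 0 of 13 did not, which allows a share of up to 23.1%, and over the whole list it was 11.1%. When the 3 lists were reduced to the length of the shortest, 2 of 13 did not (15.4%), against 23.3% of all clone 2 peaks.

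Control peaks found in both clones had higher control scores than those found in neither. The 9 control peaks found in both clones had scores of 6.91 to 13.1 and a median width of 671 bp, and the 12 found in neither had scores of 5.04 to 6.17 and a median width of 366.5 bp, so the score ranges did not overlap. Below the control median, 12 of 15 member peaks were in neither clone, against 74.3% of all control peaks below it. At or above it, 0 of 11 were, against 19.01%. The 5 peaks found in 1 clone, at scores of 5.12 to 13.04, spanned both ranges. They were 3 of IFI16 and 1 of TREX1, kept in clone 2, and the one near the IRF3 start, kept in clone 1. Recognisable means over calls were 6 of 9 peaks found in both clones, 5 of 5 found in 1 and 3 of 12 found in neither, against 66.4%, 49.9% and 18.3% over all control peaks. Depth was not tested as a cause of these absences.

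**Figure D3:**
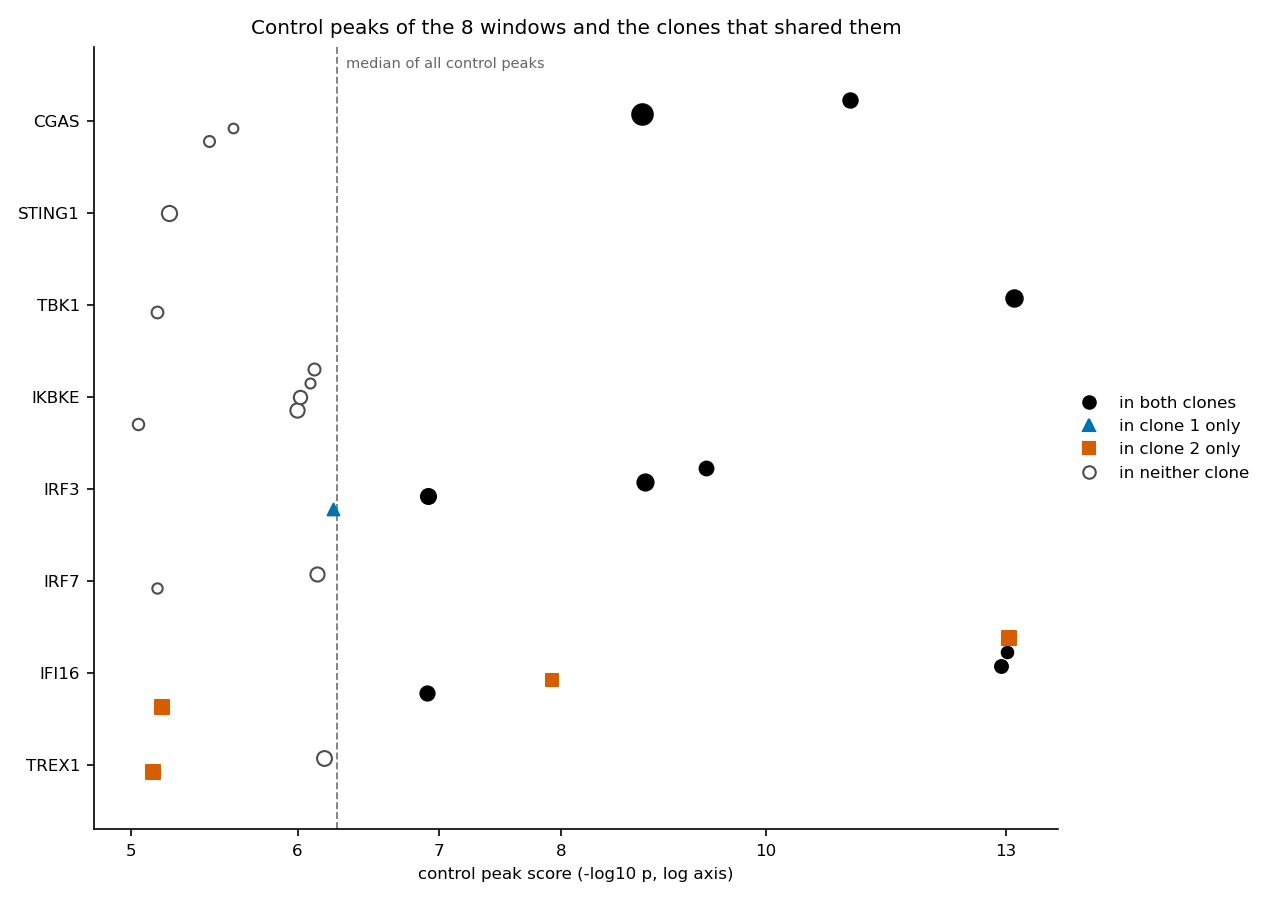
Each symbol is 1 of the 26 control peaks, placed by gene and by control score (log axis), with symbol size growing with peak width; small vertical shifts separate peaks of 1 gene. Open circles, in neither clone, lie left of the dashed list median of 6.26, and filled circles, in both clones, lie right of it.

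The wider pathway was described through 115 other genes in 8 lists, of which 74 had a control gene-end peak. In clone 1, 16 of the 74 (21.6%) had none, in clone 2 it was 19 (25.7%), and 11 (14.9%) had none in either clone, close to the shares over all genes given above. Peaks in all 3 lists were found at 50, or 67.6%, against 64.7% over all genes. For 0 of the 115 pathway genes did both clones have a gene-end peak that control lacked. Over all protein-coding genes this pattern was as rare, at 44 genes or 0.22%, so the 0 is not particular to the pathway.

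Cofactors and regulators of cGAS were mostly open throughout. Of 15 that were open at an end in control, 13 were so in all 3 lists (86.7%, against 64.7% over all genes). They included G3BP1, a stress granule protein that helps cGAS bind DNA, with scores of 26.5, 17.4 and 30.4 in control, clone 1 and clone 2, and HMGB1, a DNA-bending protein, with 22.1, 9.23 and 12.8. BANF1, the barrier protein that keeps cGAS off nuclear DNA, had one in control (6.51) and clone 2 (8.20). TTLL6, a glutamylase, had one in control only (5.43).

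Of the regulators of STING, 16 were open at an end in control. Of these, 6 were so in all 3 lists (37.5%, against 64.7% over all genes), 5 in control and clone 1, 1 in control and clone 2 and 4 in control only (25.0%, against 15.9%). Whether this list differs from the others was not tested. YIPF5, which supports STING traffic from the endoplasmic reticulum, was among the 6, with scores of 29.1, 14.4 and 30.6, as was INSIG1, with 20.6, 19.1 and 24.2. The control-only genes were TMEM203 (5.99), ULK1 (6.18), the autophagy kinase, NLRX1 (5.87) and SIGIRR (5.10). TMED2 and TOLLIP were among those with a peak in control and clone 1. TRIM56, a ubiquitin ligase, had one in clone 1 only (5.06), the pattern of IRF3.

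Among adaptors and regulators of the kinases, 11 of 14 had a gene-end peak in all 3 lists (78.6%, against 64.7% over all genes). The strongest was USP38, a deubiquitinase, with scores of 32.1, 22.5 and 35.4. TBKBP1 (5.80) and OPTN (6.97), which bind TBK1, had one in control only. TANK, another TBK1 adaptor, had one in clone 1 only (7.68). Among the other IRF genes, IRF1 and IRF9 had one in all 3 lists, IRF2 in control and clone 1, and IRF5 in control only (6.39). IRF4 and IRF8, factors of blood cells, had none in any list.

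Genes that break down or move cGAMP gave 5 of 7 in all 3 lists (71.4%, against 64.7% over all genes). They included ENPP1, the main cGAMP hydrolase, with scores of 17.1, 10.4 and 15.9, and SMPDL3A with 32.9, 19.03 and 30.2. LRRC8E, a channel subunit, had one in control only (5.15). Of the genes listed as DNA clearance nucleases, 5 of 7 had one in all 3 lists (71.4%), DNASE1 and PLD3 among them. DNASE2 (5.56) and RNASEH2A (5.58) had one in control only (28.6%, against 15.9% over all genes). Of 9 other DNA sensor genes with a control peak, 6 had one in all 3 lists (66.7%) and none was open in control only. Over all genes these shares were 64.7% and 15.9%. ZBP1 had one in clone 1 only (5.05). AIM2, MNDA and PYHIN1, the relatives of IFI16 on the same chromosome, had none in any list. Of 10 output cytokine genes, IL6 had a gene-end peak in all 3 lists (6.93, 7.66 and 11.6). The other 9, among them IFNB1, CXCL10 and CCL5, had none in any list. Over all protein-coding genes, 36.4% had none in any list.

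The score was again lower where the clones lacked a peak. The 11 pathway genes open in control only had control scores of 5.10 to 6.97 with a median of 5.80, and the 50 open in all 3 lists had 5.28 to 32.9 with a median of 12.4. Neighbours that share a peak, such as RNF115 and POLR3C, are counted as separate genes.

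**Figure D4:**
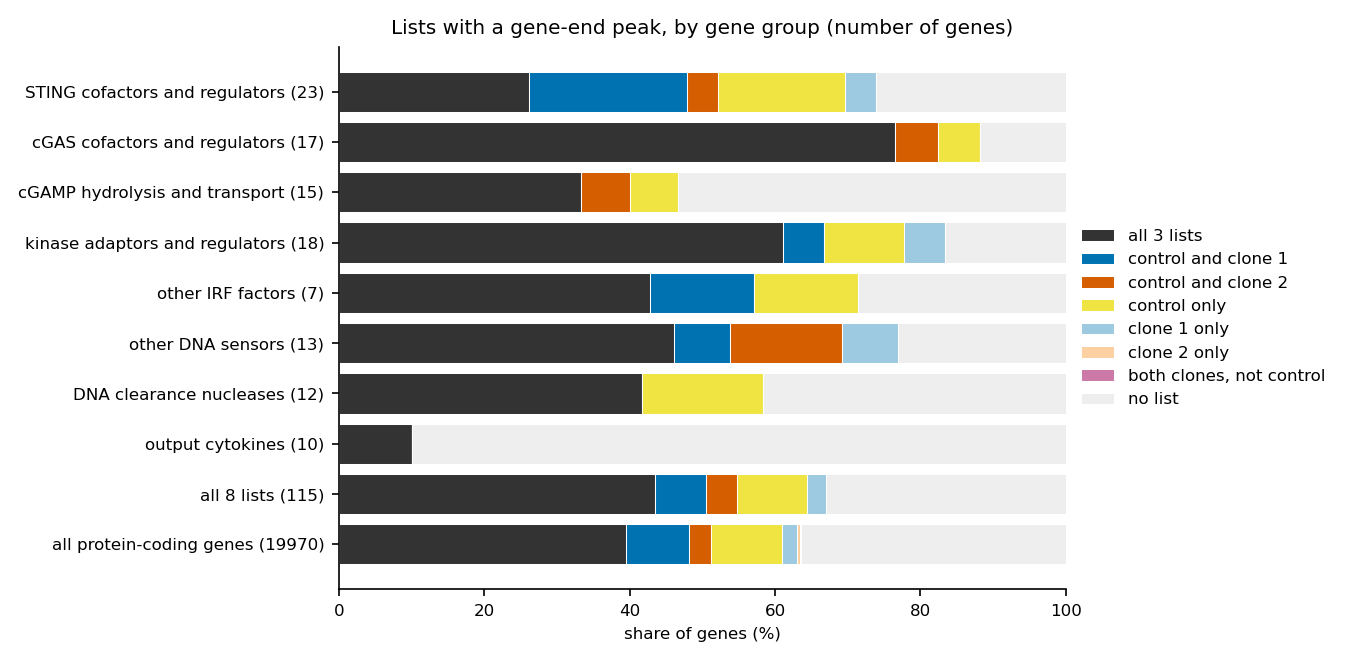
Share of the genes of each pathway list with a gene-end peak in the lists named in the key, with all protein-coding genes at the bottom and the number of genes in brackets. The bar for all 8 lists and the bar for all protein-coding genes have similar divisions. Of output cytokine genes, 9 of 10 have no gene-end peak, against 36.4% of all protein-coding genes.

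Of markers whose gene ends were examined as a check of the label, mesenchymal genes (VIM, AXL, CD44, ZEB1 and FN1) had a gene-end peak at 5 of 5 in control, 3 of 5 in clone 1 and 2 of 5 in clone 2. Breast epithelial genes had one at 3, 2 and 1 of 7. These were EPCAM in every list, KRT8 and KRT18 in control and CDH1 in clone 1, while KRT7, KRT19 and ELF3 had none. Melanocyte genes had one at 2 of 5 in each list, PMEL and DCT. Leukocyte genes had one at 4, 1 and 3 of 7, with CD14 in every list. SPI1 had one in control and clone 2, LCP1 and CD68 in control, and PTPRC in clone 2. Over all protein-coding genes the share with a gene-end peak was 60.9% in control, 50.4% in clone 1 and 43.2% in clone 2. With so few markers the counts do not set one cell type apart from this background, and a peak does not measure expression. SMARCAL1 itself had a gene-end peak in every list, which is no check of the knockout.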

How the data were processed

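ATAC-seq peaks of 8 libraries of MDA-MB-436 in 3 groups were used. B16F10 mouse melanoma libraries (6) were not analysed here. The deposited lists are named as merged replicates, 1 for each group, and the tools listed in the submitters' processing notes are HISAT2, MACS2 and ChIPseeker, beside the builds hg38 and mm10. For the versions and parameters of these tools nothing is given in the sources used here. Each deposited score is read as −log10 p from its values, since the lists have no header that names the unit. Single calls had 5 decimals in batch 1 and 6 significant digits in batch 2. Read depth is unknown.

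Positions are counted from 1. Genes came from RefSeq (GRCh38.p14), without chromosome Y. All 8 members and all 115 pathway genes matched. Peaks counted as shared when at least 1 bp overlapped, computed with Python 3.11.15, pandas 2.3.3 and NumPy 2.4.6 after the rules were tested on simulated data. Exact binomial intervals came from SciPy 1.17.1, and a count of 0 was taken to allow 3 counts. Like peaks are all control peaks within 10% of a score and of the same place, at a gene end or not. The genes named are all members, neighbours at their peaks, and pathway genes open in control only, in clone 1 only or in both clones only. Further pathway genes and the comparisons with genes of equal peak number were chosen after their values were seen. Those comparisons do not match peak scores. The members and lists were chosen with earlier results of these data known. Alternatives varied the flank, the gene-end distance, the overlap and the score threshold.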

Additional observations from a re-analysis of the deposited data

How the results depend on the processing

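No paired analysis was possible because each group is 1 merged list, and leaving out replicates was not run for the same reason. The flank (10 or 50 kb) and the overlap rule (50% of the narrower peak, or up to 200 bp apart) left the shares of control peaks absent in the clones within their intervals. With lists of equal length (34572 peaks) the shares absent were 37.5% in clone 1, 31.25% in clone 2 and 25.0% in both, against 38.05%, 31.55% and 22.4% over all control peaks. With every list cut at its own median score, 6 of 11 control peaks were absent in clone 1 (54.55%). In clone 2 it was 5 of 11 (45.45%), and in both 4 of 11 (36.36%). The shares over all control peaks were not computed for this setting. Among control peaks above the list median, with whole clone lists, the shares absent were 18.2% in clone 1, 0% in clone 2 and 0% in both, against 32.0%, 29.0% and 19.01% over all control peaks. Among recognisable means they were 50% in clone 1, 28.6% in clone 2 and 21.4% in both, against 35.5%, 33.6% and 21.2%. The last 2 settings were chosen after seeing the data. Clone 2 peaks without a control peak were 2 of 13 (15.4%) at equal length, against 23.3% of all clone 2 peaks. With a flank of 50 kb they were 1 of 23 (4.35%), against 11.1% of the whole clone 2 list. Above each list's median they were 1 of 7 (14.3%), where the share over all clone 2 peaks was not computed.

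The windows held 17, 9 and 8 peaks in control, clone 1 and clone 2 with a flank of 10 kb, 40, 27 and 23 with 50 kb, and 11, 7 and 7 above the median score of each list; with equal length, control held 16. Members with a control gene-end peak numbered 4 with equal length (STING1, IKBKE and TREX1 lost theirs) and 3 above the median, where clone 2 had 2. With start sites only, which the sequence table gives for 4 members, they numbered 4 in control and 2 in clone 1. Pathway genes open in control only were 6 of 83 with a control peak where gene ends reached 3000 bp, and 4 of 63 with equal length. They were 8 of 70 within 500 bp and 10 of 61 above the median of each list, against 11 of 74 in the main setting. Where a clone peak over the control gene-end peak also counted, they were 10 of 74, so not all of the 11 lacked such a clone peak. The same shares over all genes were not computed for these alternatives. Within 500 bp IFI16 had no clone 1 gene-end peak, and within 3000 bp IRF3 had a control one. The lists give no read counts, so how far depth bears on the weak peaks was not tested.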

Other observations

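MTO1, a mitochondrial tRNA modification gene next to CGAS, had a peak over its nearer end in every list, scored 10.97, 5.71 and 16.1 for control, clone 1 and clone 2. The peak shared by the ends of RRAS and SCAF1 near IRF3 had 8.77, 5.75 and 8.498, and the PRMT1 peak 6.92, 8.45 and 6.06. The clone 1 PRMT1 peak, 1000 bp wide, had the highest score of the clone 1 peaks in the 8 windows, and the clone 2 peak there, 107 bp wide, the lowest of the clone 2 peaks.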
